A study of Mus musculus with 20 samples.

Results

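The comparison described here was between 21h10, a designed protein mimic of interleukin-21 (IL-21), and native murine IL-21 (mIL-21), each given to mouse CD8+ T cells at 100 pM for 24 hours. It rested on 4 of the 20 RNA-sequencing libraries of the series, 2 with each cytokine, chosen by dose and cytokine as the sample labels name them. Of 23992 gene symbols listed, 13974 had enough reads to be tested. The comparison asks which genes and pathways separate the 2 cytokines at the lowest dose used, beyond the 20 genes that the study displayed. The 4 libraries were fitted together with 6 others of the same experiment, namely duplicates without cytokine and duplicates given either cytokine at 1 nM.

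All 5 groups held CD8+ T cells from the spleens of wild-type C57BL/6J mice aged 6 to 8 weeks, isolated by negative selection. Every group, the one without cytokine included, had been activated through CD3 and CD28 and rested overnight. The labels give 24 hours for the groups with cytokine and no time for the group without it. Differences from the group without cytokine may therefore include culture time, which was not tested. The labels call the pairs of libraries duplicates and do not say whether they came from separate animals or cultures, so the p-values measure only the spread between these libraries, which may be technical. Reads on genes came to 45841668 and 36824740 in the mIL-21 libraries at 100 pM and to 52561346 and 92436444 in the 21h10 libraries.

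IL-21 is made mainly by helper T cells and binds a receptor of 2 chains, the IL-21 receptor and the common gamma chain shared with IL-2 and related cytokines. The chains carry the kinases JAK1 and JAK3, which phosphorylate STAT3 and, to a lesser degree, other STAT proteins such as STAT5. In CD8+ T cells IL-21 is known for supporting survival and effector differentiation. STAT3 drives genes such as Il10 and Pim1, whereas interferons, which signal through receptors of their own, induce antiviral genes.

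T cell identity was checked first. The 6 markers Cd3e, Cd3d, Cd3g, Cd8a, Cd8b1 and Cd5 lay between 72.6 and 425 RPKM (reads scaled to transcript length and to mapped reads) in all 10 libraries. Their summed level was 1269 and 1313 RPKM with 21h10 and 1488 and 1494 RPKM with mIL-21 at 100 pM, and 2 of the 6 passed the test as lower with 21h10. Of the markers of other cell types, 2 of 4 for CD4 T cells, 2 of 6 for B cells, 2 of 6 for myeloid cells, 0 of 3 for NK cells, 0 of 3 for erythroid cells and 1 of 4 for stromal cells reached 1 RPKM in any of the 10 libraries. Among those near 0, the maxima were 0.0883 RPKM for Lyz2 and 0.0117 for Csf1r (myeloid cells), 0.154 for Ncr1 (NK cells) and 0.0325 for Foxp3 (regulatory T cells). The markers that were present did not share one direction. The myeloid integrin Itgam was at 9.16 and 10.2 RPKM with 21h10 against 3.05 and 2.76 RPKM with mIL-21, and the integrin Itgax of the same list was at 2.10 and 2.25 RPKM against 7.45 and 7.41 RPKM. The B cell factor Ebf1 was at 0.936 and 0.928 RPKM with 21h10 against 0.190 and 0.121 RPKM, and Cd79b, of the B cell receptor, at 6.73 and 6.21 RPKM against 9.79 and 10.3 RPKM. Pecam1, of endothelium and some leukocytes, was at 12.7 and 12.6 RPKM against 18.4 and 17.3 RPKM. Summed over each list with 21h10 and with mIL-21 at 100 pM, the 6 B cell markers came to 7.25 to 7.77 and 10.2 to 10.6 RPKM, the 6 myeloid markers to 11.4 to 12.5 and 10.3 to 10.6 RPKM, and the 4 stromal markers to 13.2 to 13.3 and 17.9 to 19.1 RPKM. The part of other cells in the results below was not tested. In bulk RNA, fewer cells of a type and less RNA per cell cannot be told apart.

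Of the 13974 genes tested, 5398 passed at 100 pM. With 21h10, 2745 (19.6%) were higher and 2653 (19%) lower than with mIL-21, at a Benjamini-Hochberg adjusted p under 0.05 from edgeR's quasi-likelihood test. Most differences were small. Among the genes that passed, the median absolute log2 fold change was 0.34, and 359 were higher and 198 lower by a log2 fold change of at least 1. The median over all genes tested was -0.01. Scaling to mapped reads instead of edgeR's trimmed mean of M values (TMM) moved this median to -0.11 and the split to 1616 higher and 4071 lower, and limma on RPKM gave 1319 higher and 3479 lower, so that list counts with small fold changes depend on the scaling. Without mIL-21 replicate 1 the total was 3505, with 1654 lower, and without 21h10 replicate 2 the number lower was 1734.

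Gene lists were then read against these background shares. Of 27 lists, 16 had a median log2 fold change above that of all genes tested and 11 below it. The plot of shares by list shows where both directions stood.

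**Figure D1:**
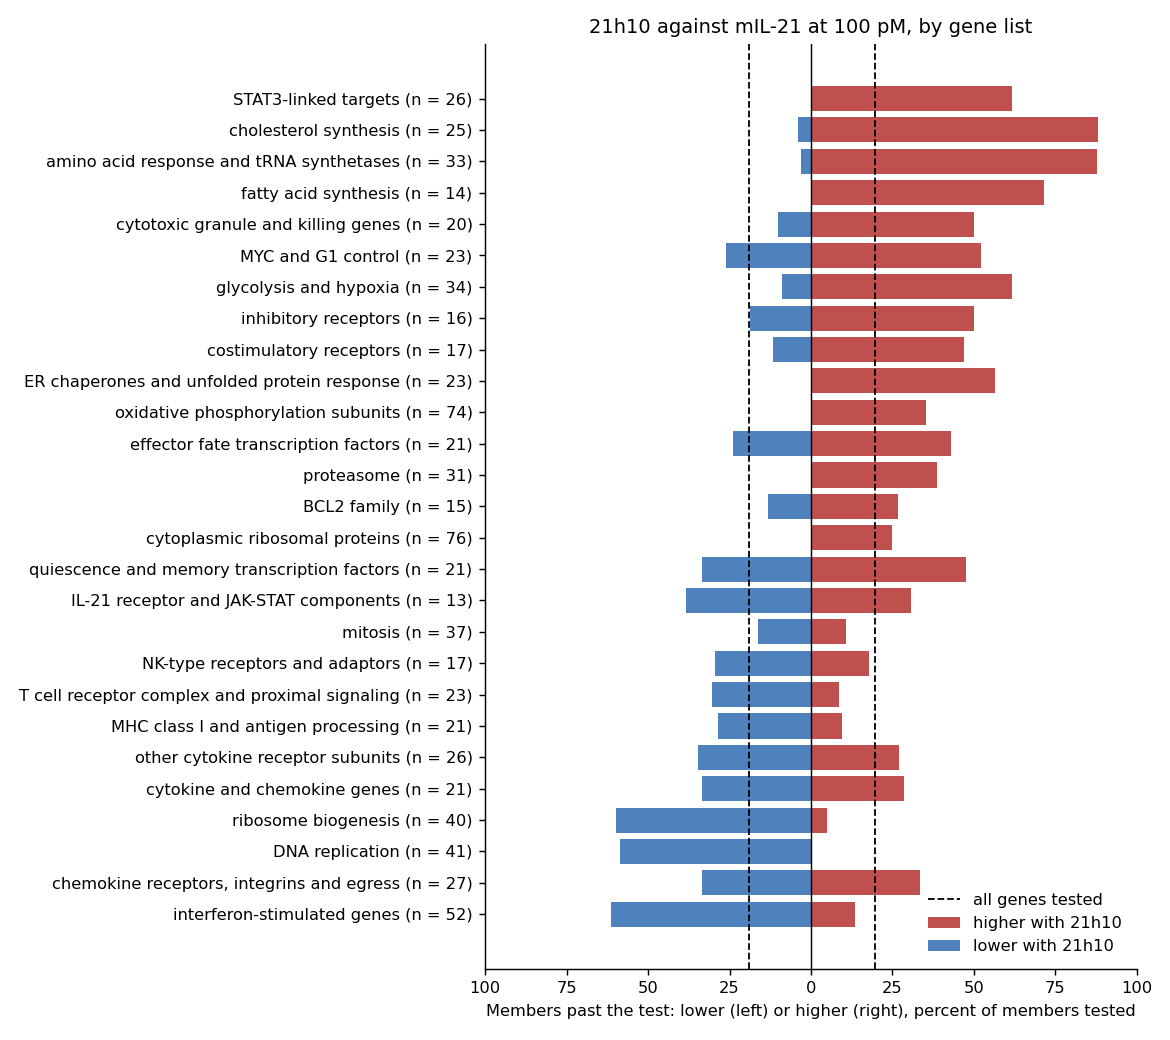
Percent of the tested members of each of 27 gene lists that were higher (right, red) or lower (left, blue) with 21h10 than with mIL-21 at 100 pM, with lists ordered by median log2 fold change and dashed lines at the shares over all genes tested (19.6% higher, 19% lower). Cholesterol synthesis (22 of 25 higher) and the amino acid response (29 of 33 higher) stood farthest to the right, and the interferon-stimulated genes (32 of 52), ribosome biogenesis (24 of 40) and DNA replication (24 of 41) farthest to the left.

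Some regulatory sequences help to show which genes these lists hold. Promoter windows of 300 bases from RefSeq (GRCm38.p6, 250 bases before each start and 50 after) were matched by symbol for 10254 of the 13974 genes tested. They were searched on both strands for 4 short motifs, and all but the STAT motif were chosen after the fold changes were known. The interferon response motif, TTTC and again TTTC with 2 bases of any kind between, stood in 20 of 37 promoters of the interferon-stimulated list (54.1%), against 3.80% over all genes tested. The amino acid response motif TGATGNAA, bound by ATF4 and its partners, stood in 11 of 26 promoters of the amino acid list (42.3%), against 2.81%. The sterol response motif TCACNCCAC stood in 1 of 18 promoters of the cholesterol list and in 1.42% of all, and the STAT motif TTCNNNGAA in 0 of 16 promoters of STAT3-linked targets and in 8.37% of all. The STAT motif was also in 14 of 37 promoters of interferon-stimulated genes (37.8%). These 5 stretches of 60 bases before the start are printed on the strand of the gene, with each match to the motif in capitals (3 overlapping matches in Isg15 and 1 in each of the others), because these genes are described below. They lie at chr13:119690189-119690248 (plus strand, Hmgcs1), chr6:7693210-7693269 (minus strand, Asns), chr2:119351024-119351083 (plus strand, Chac1), chr11:49064248-49064307 (minus strand, Tgtp2) and chr4:156200856-156200915 (minus strand, Isg15).
Hmgcs1: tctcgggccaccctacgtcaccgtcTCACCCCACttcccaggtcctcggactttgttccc
Asns: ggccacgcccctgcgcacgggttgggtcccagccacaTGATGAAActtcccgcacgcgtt
Chac1: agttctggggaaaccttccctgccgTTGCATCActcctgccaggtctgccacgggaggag
Tgtp2: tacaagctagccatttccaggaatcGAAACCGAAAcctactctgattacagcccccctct
Isg15: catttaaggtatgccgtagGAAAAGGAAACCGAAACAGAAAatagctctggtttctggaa
A match is a description of the letters in these windows, and no match says nothing of binding elsewhere.

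The genes with the largest rises were at low levels without cytokine. Serpinb5, which encodes the serpin maspin, had 1.51 and 1.20 CPM (counts scaled to library size with TMM) with mIL-21 and 68.7 and 67.4 CPM with 21h10, against 0.141 and 0.145 CPM without cytokine. The 2 groups at 100 pM were far apart, by a log2 fold change of 5.63 ± 0.08 (SE, n = 2 libraries a group, edgeR adjusted p = 6.74e-18), or 49.6-fold. Ggt1, a gamma-glutamyl transferase of glutathione metabolism, was at 6.10 and 5.13 CPM with mIL-21 and 78.2 and 69.0 CPM with 21h10 (13.0-fold higher). Ifitm1, an interferon-inducible membrane protein, rose from 14.5 and 13.8 CPM to 138.3 and 121.4 CPM (9.15-fold). Since the naming rule asked for groups without overlap, the gap between the pairs of these 3 genes was fixed by their choice. Moxd1, a monooxygenase-like gene, had 2 reads over both mIL-21 libraries and 917 over both 21h10 libraries, a ratio of 277 after scaling with a 95% exact interval from counting error of 76.4 to 2289. Kif1a, a kinesin motor, Gcnt1, a glycosyltransferase of core 2 O-glycans, and Enpp2, the enzyme autotaxin, rose by 3.60, 3.55 and 3.35 on the log2 scale. Timp1, an inhibitor of matrix metalloproteases, stood at 0.247 and 0.154 CPM with mIL-21, at 1.59 and 1.67 CPM with 21h10 and at 0.886 and 0.727 CPM without cytokine. Mir761 had 0 reads in both mIL-21 libraries and 30 over both 21h10 libraries, at least 6.04-fold higher against a floor of 3 reads over the group. It lies within Nrd1 on the same strand, which overlaps 55.3% of its bases, so these reads may belong to the host gene, and its call was lost without either mIL-21 library (adjusted p 0.0782 without replicate 1, 0.0523 without replicate 2).

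Among the largest falls, Capn3, a calpain protease, fell from 10.9 and 10.9 CPM to 0.825 and 1.02 CPM, with a log2 fold change of -3.53 ± 0.13 (SE, n = 2, edgeR adjusted p = 1.71e-12). Its level with mIL-21 at 100 pM was near that without cytokine, 9.96 and 9.54 CPM. With mIL-21 at 1 nM Capn3 stood at 1.20 and 1.10 CPM, and with 21h10 at 1 nM at 0.280 and 0.198 CPM. Xcl1, the chemokine that draws cross-presenting dendritic cells, fell by 2.43 on the log2 scale, from 11.8 and 11.1 CPM to 2.13 and 2.11 CPM. Hemgn, known from blood progenitors, and Tbc1d4, a regulator of glucose transporter traffic, fell by 2.32 and 2.05. Lower fold changes on fewer reads were those of Derl3 (-1.91), which serves degradation from the endoplasmic reticulum, 1700101E01Rik (-1.82) and the mast cell protease gene Cpa3 (-1.81). Itgae, the CD103 chain of an integrin that binds E-cadherin, was at 22.7 and 23.5 CPM without cytokine, at 87.0 and 85.3 CPM in the mIL-21 libraries and at 22.8 and 22.6 CPM in those with 21h10. Thus Itgae was raised by mIL-21 at 100 pM (log2 fold change 1.90 against no cytokine) but with 21h10 at 100 pM it stood at the level without cytokine (-0.02). The raised level was not seen at 1 nM, where Itgae was at 29.6 and 29.1 CPM with mIL-21 and 6.38 and 5.46 CPM with 21h10.

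**Figure D2:**
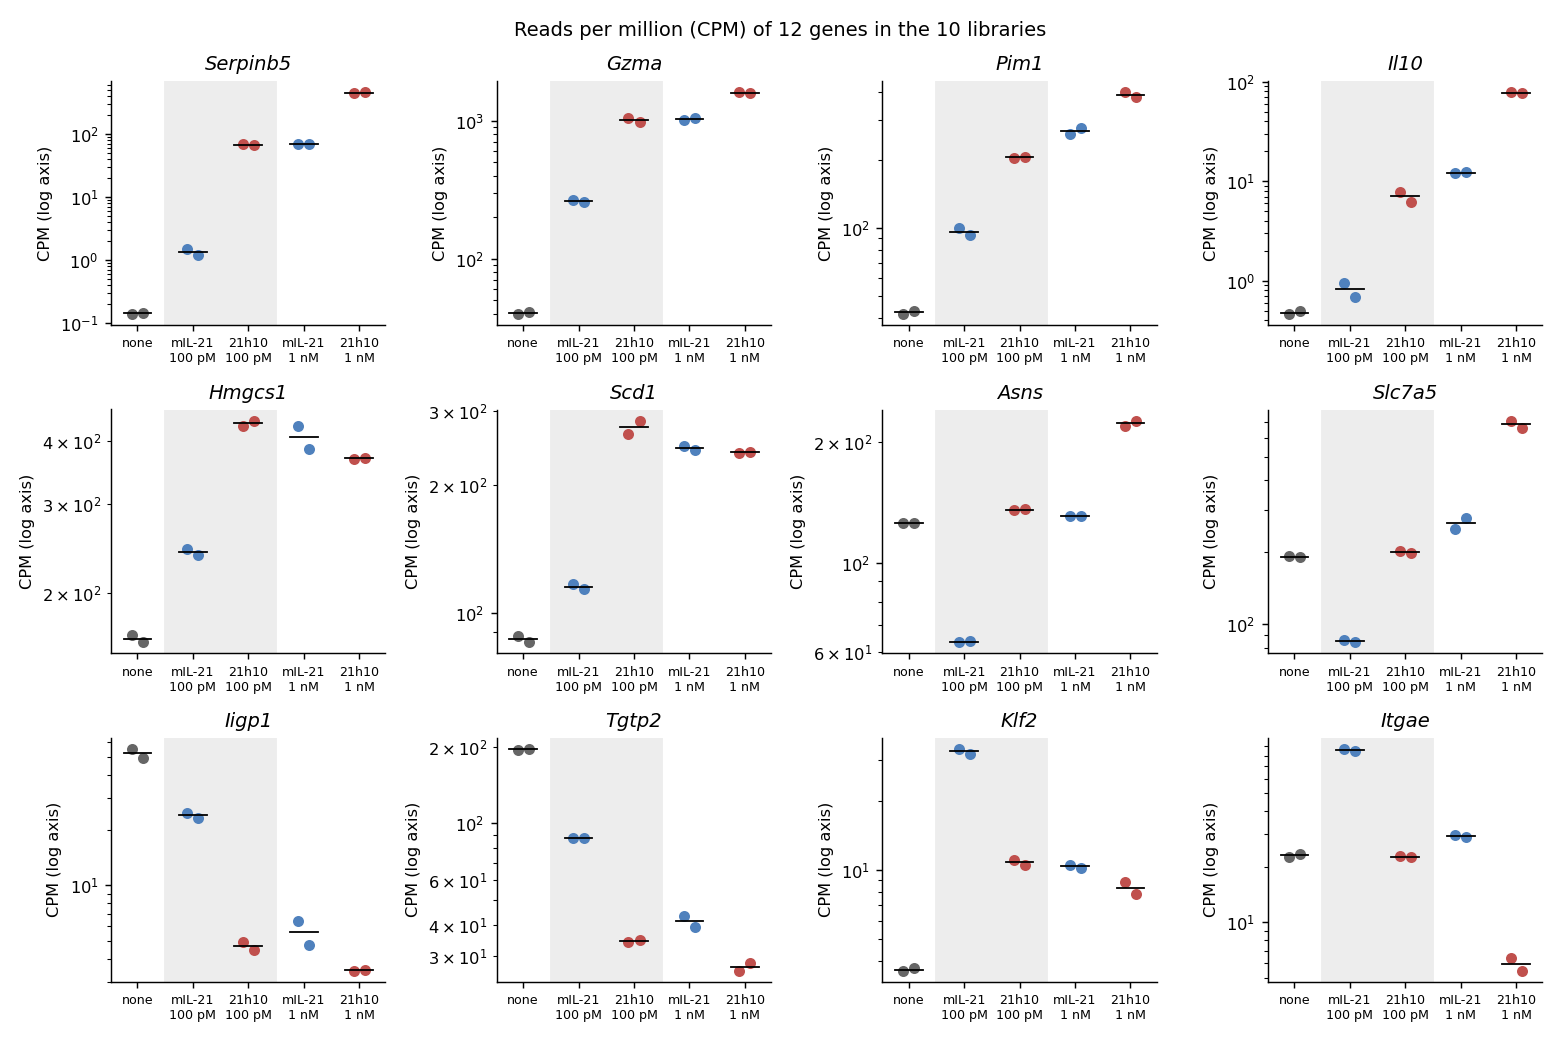
CPM on a log axis of 12 genes in each of the 10 libraries, with grey points for no cytokine (none), blue for mIL-21 and red for 21h10, bars at the mean of the 2 libraries and grey shading over the 100 pM groups. At 100 pM, 21h10 (red) and mIL-21 (blue) had Serpinb5 at 67.4 to 68.7 against 1.20 to 1.51 CPM and Klf2 at 10.5 to 11.1 against 32.1 to 33.5 CPM.

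Receptor and signaling genes moved in both directions. Il21r, the cytokine's own receptor chain, had 142.9 and 135.8 CPM with mIL-21 and 211.7 and 211.5 CPM with the mimic, a log2 fold change of 0.60 ± 0.05 (SE, n = 2, edgeR adjusted p = 2.75e-08). Its partner Il2rg, the common gamma chain, was at 481 and 485 CPM with mIL-21 and 478 and 482 CPM with 21h10 and did not pass (log2 fold change -0.01, adjusted p = 0.900). Of the 13 receptor and JAK-STAT genes, 4 were higher and 5 lower. The genes that were higher included those of STAT3 (0.54) and STAT5 (Stat5a, 0.49, and Stat5b, 0.25). The lower ones included Stat4 (-0.32) and Tyk2 (-0.29), besides Jak1 (-0.15) and Jak3 (-0.17), and only 3 were lower without 21h10 replicate 1, without mIL-21 replicate 1 or without mIL-21 replicate 2. A read-through transcript, Gm28177, shares 26.7% of the exonic bases of Stat4.

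Most STAT3-linked targets were higher with 21h10. Of 26 tested, 16 were higher, 10 did not pass and 0 were lower with 21h10 at 100 pM, against a background of 19.6% and 19%, and the median log2 fold change was 0.64. At 1 nM 23 of the same 26 were higher and 0 lower, where 19.6% of all genes were higher and 18.1% lower. Il10, an anti-inflammatory cytokine, had 0.949 and 0.692 CPM with mIL-21 and 7.82 and 6.25 CPM with 21h10 (8.29-fold higher). It was at 11.97 and 12.34 CPM with mIL-21 at 1 nM and 78.7 and 76.4 CPM with 21h10 at 1 nM. The cytokine gene Il24 rose by 1.81 on the log2 scale, and Pim1, a survival kinase, went from 99.5 and 92.8 CPM to 204.7 and 205.3 CPM (log2 fold change 1.09). Other cytokine receptor subunits did not share one direction, with 7 of 26 higher and 9 lower. Il2ra, the high-affinity IL-2 receptor chain, was higher with 21h10 at 1214 and 1213 CPM against 736 and 737 CPM, whereas Il10ra, which receives IL-10, was lower at 102 and 102 CPM against 147 and 144 CPM. Of these subunits, 3 were higher without 21h10 replicate 2 and 4 without mIL-21 replicate 1.

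Most interferon-stimulated genes were lower with 21h10 at 100 pM. Of 52 tested, 32 were lower and 7 higher, with a median log2 fold change of -0.36, and the number higher was 4 without mIL-21 replicate 2 and 3 on scaling to mapped reads. Iigp1, an immunity-related GTPase, was at 24.7 and 23.4 CPM with mIL-21 and 4.93 and 4.45 CPM with 21h10, after 55.1 and 49.4 CPM without cytokine (log2 fold change between the cytokines -2.37 ± 0.10, SE, n = 2, edgeR adjusted p = 1.46e-11). Tgtp2, another of these GTPases, fell from 87.8 and 87.1 CPM to 34.1 and 34.8 CPM (log2 fold change -1.34), although its transcript matches that of Tgtp1 over 100% of its length and reads could be split between them. Ifi44, an antiviral gene, fell by 2.06 on the log2 scale. Not every interferon-stimulated gene went this way. Ifitm1, which is inducible by interferon but not on this list, was 9.15-fold higher, as given above. Of the list, Ly6a, the surface protein Sca-1, was higher with 21h10, at 1046 and 984 CPM against 613 and 625 CPM (log2 fold change 0.71). Isg15, a ubiquitin-like protein, lay at 3.79 and 3.49 CPM with mIL-21 and 4.99 and 4.26 CPM with 21h10, which passed narrowly (adjusted p = 0.0478) and did not pass with DESeq2 (adjusted p = 0.0748), limma, mapped-read scaling or when any library but 21h10 replicate 2 was left out. At 1 nM the list was divided, with 19 higher and 23 lower. Of the list, 7 genes were lower at 100 pM and higher at 1 nM, against 109 of all 13974 genes tested. In the MHC class I list 6 of 21 were lower and 2 higher (0 higher on mapped reads, 3 lower without mIL-21 replicate 1, and 1 higher without any of mIL-21 replicate 1, 21h10 replicate 1 or 21h10 replicate 2 and 0 without mIL-21 replicate 2). Nlrc5, the factor that drives class I genes, was lower in both 21h10 libraries, at 156 and 156 CPM against 248 and 240 CPM with mIL-21 (log2 fold change -0.65).

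Cholesterol synthesis genes were mostly higher with 21h10 at 100 pM. Of 25 genes tested, 22 were higher and 1 lower with 21h10 at 100 pM (median log2 fold change 0.53), and at 1 nM 2 were higher and 4 lower (median 0.01). Hmgcs1, which makes the precursor of mevalonate and whose promoter stretch with the sterol response motif is printed above, was at 165 and 160 CPM without cytokine, 245 and 238 CPM with mIL-21 and 430 and 440 CPM with 21h10. The log2 fold change between the cytokines was 0.85 ± 0.05 (SE, n = 2, edgeR adjusted p = 9.14e-10). At 1 nM Hmgcs1 had 430 and 387 CPM with mIL-21 and 370 and 371 CPM with 21h10. Fdps, which makes farnesyl diphosphate, and Sc4mol, a sterol demethylation enzyme now named Msmo1, rose by 0.86 and 0.96 on the log2 scale at 100 pM. The member that was lower was Scap (-0.17, adjusted p = 0.0308), a sterol-sensing escort protein, and its call was lost when any 1 of the 4 libraries was left out. Fatty acid synthesis followed the same course, with 10 of 14 higher and 0 lower at 100 pM and 4 higher and 3 lower at 1 nM. Scd1, a fatty acid desaturase, had 117 and 114 CPM with mIL-21 and 265 and 284 CPM with 21h10 (2.38-fold higher). At 1 nM it had 247 and 242 CPM with mIL-21 and 239 and 240 CPM with 21h10. The desaturase Fads2 rose by 1.19 and the elongase Elovl6 by 0.96, and Elovl6 was also higher at 1 nM (0.90).

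Genes of the amino acid response and the tRNA synthetases were mostly higher with 21h10 at both doses. At 100 pM 29 of 33 were higher and 1 lower (median log2 fold change 0.48), and at 1 nM 30 were higher and 1 lower. Of the list, 28 were higher at both doses, against 1501 of all 13974 genes tested. Against cells without cytokine, mIL-21 at 100 pM left 4 of the 33 higher and 27 lower (backgrounds 38.3% and 39.4%), and 21h10 left 12 higher and 15 lower (backgrounds 40.2% and 41.3%). Asns, asparagine synthetase, showed this pattern, with 125 and 126 CPM without cytokine, 63.5 and 63.8 CPM with mIL-21 and 135.3 and 135.8 CPM with 21h10. It was 2.13-fold higher with 21h10 than with mIL-21 (log2 fold change 1.09 ± 0.04, SE, n = 2, edgeR adjusted p = 8.23e-12). Slc7a5, the large neutral amino acid transporter, was at 192.4 and 191.3 CPM without cytokine, 86.0 and 84.3 CPM with mIL-21 and 202.5 and 199.2 CPM with 21h10. Ddit3, the stress factor CHOP, Atf5, a relative of ATF4, and Chac1, which degrades glutathione, rose by 1.30, 1.23 and 1.04. Unlike Asns and Slc7a5, Ddit3 was also raised by mIL-21. It was at 8.85 and 8.59 CPM without cytokine, 29.0 and 27.3 CPM with mIL-21 and 69.2 and 70.1 CPM with 21h10. The 1 member that was lower, Slc1a5, encodes a glutamine transporter (-0.22, adjusted p = 2.54e-03). Of 23 genes for chaperones and the unfolded protein response, 13 were higher and 0 lower, among them the sensor Atf6 (0.82) and Herpud1 (0.34), of protein degradation at the endoplasmic reticulum. That count was 4 higher and 2 lower on scaling to mapped reads, and 6 higher without mIL-21 replicate 2.

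**Figure D3:**
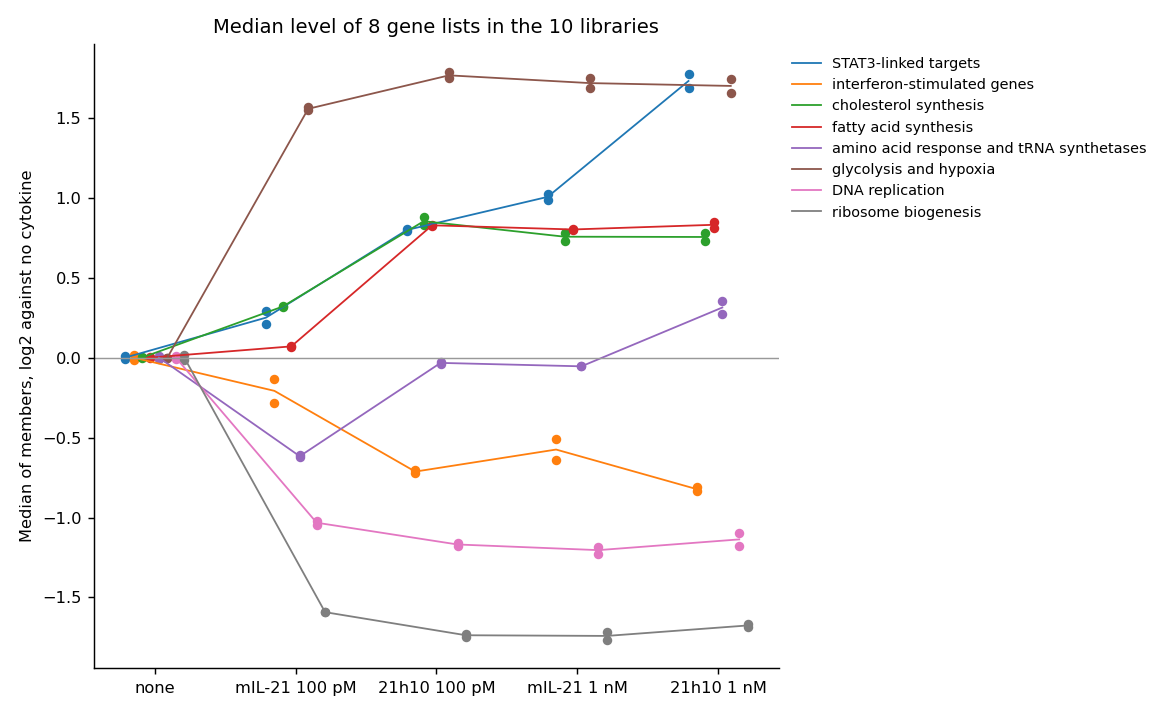
Median over the members of 8 gene lists in each of the 10 libraries, as log2 against the mean without cytokine, with 1 point a library and lines through the group means. At 100 pM the amino acid list lay at -0.62 and -0.61 with mIL-21 and at -0.04 and -0.03 with 21h10, and the cholesterol list at 0.31 and 0.33 against 0.83 and 0.88.

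Other metabolic lists moved less. Of 34 genes of glycolysis and the hypoxia response, 21 were higher and 3 lower (14 higher on scaling to mapped reads). Adm, the vessel-dilating peptide adrenomedullin, was at 1.20 and 0.923 CPM with mIL-21 and 5.01 and 6.59 CPM with 21h10 (log2 fold change 2.46). Ndrg1, a stress-inducible gene, went from 282 and 278 CPM to 448 and 457 CPM, and Hk2, the first enzyme of glycolysis, was lower at 185 and 190 CPM against 222 and 221 CPM. Against no cytokine, 33 of the 34 were higher with either cytokine at 100 pM. Of 74 subunits of oxidative phosphorylation 26 were higher and 0 lower (median log2 fold change 0.12), of 76 cytoplasmic ribosomal proteins 19 and 0 (0.08), and of 31 proteasome subunits 12 and 0 (0.11). Uqcrq of complex III (0.49), Rps25 of the small ribosomal subunit (0.29) and Psmc6 of the proteasome (0.48) led these. These 3 lists depended on the scaling, which left 3 higher and 4 lower, 1 and 2, and 2 and 4 on mapped reads. They also depended on single libraries. For oxidative phosphorylation 8 were higher without 21h10 replicate 1, 10 without mIL-21 replicate 1 and 13 without mIL-21 replicate 2. Ribosomal proteins came to 3, 3 and 8 on leaving out the same libraries. Proteasome subunits came to 5, 6 and 3, and to 6 without 21h10 replicate 2.

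Genes of DNA replication and ribosome biogenesis were more often lower than higher. Of 41 DNA replication genes 24 were lower and 0 higher with 21h10 at 100 pM (median log2 fold change -0.21), and of 40 ribosome biogenesis genes 24 were lower and 2 higher (-0.19). At 1 nM this did not recur, with 11 higher and 1 lower of the replication genes and 12 higher and 2 lower of the biogenesis genes. Both lists were below the level without cytokine in all treated groups. Against no cytokine, 40 of 41 replication genes and 40 of 40 biogenesis genes were lower with mIL-21 at 100 pM, and the same numbers with 21h10. Pole, the catalytic subunit of DNA polymerase epsilon, had 164 and 164 CPM without cytokine, 121 and 124 CPM with mIL-21 and 88.1 and 88.5 CPM with 21h10 (log2 fold change between the cytokines -0.47 ± 0.05, SE, n = 2, edgeR adjusted p = 7.03e-07). Nolc1, a nucleolar protein, was at 347 and 344 CPM, 63.3 and 63.7 CPM and 44.4 and 45.5 CPM in the same order. The replication nuclease Fen1 fell by 0.42 on the log2 scale, although Gm10143 on the other strand overlaps 78.8% of its exonic bases. Polr1b, an RNA polymerase I subunit, fell by 0.68, and Rrp1b, of ribosomal RNA processing, was higher (0.55). Myc, which drives growth, was at 265 and 267 CPM with mIL-21 and 185 and 188 CPM with 21h10 (-0.51), but higher with 21h10 at 1 nM (0.23). The mitotic list showed no common direction, with 4 of 37 higher and 6 lower. Leaving out 21h10 replicate 1, 21h10 replicate 2, mIL-21 replicate 1 and mIL-21 replicate 2 in turn gave 1, 2, 1 and 0 higher and 4, 3, 5 and 3 lower, and scaling to mapped reads gave 0 higher and 13 lower. The kinetochore motor Cenpe, at 116 and 113 CPM against 154 and 127 CPM, passed at an adjusted p of 0.0280 but not with DESeq2 (0.153) and not without 21h10 replicate 1 (0.354), mIL-21 replicate 1 (0.0945) or mIL-21 replicate 2 (0.133). Of 23 MYC and G1 genes 12 were higher and 6 lower. Cdkn1a, the p21 inhibitor of cyclin-dependent kinases, rose from 158 and 155 CPM to 321 and 332 CPM (log2 fold change 1.06), while Mxd1, a MYC antagonist, and Cdk6, a G1 kinase, rose by 0.95 and 0.87. The largest fall of this list (-0.62) was that of another gene of the Mxd1 family, so these antagonists did not share one direction.

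**Figure D4:**
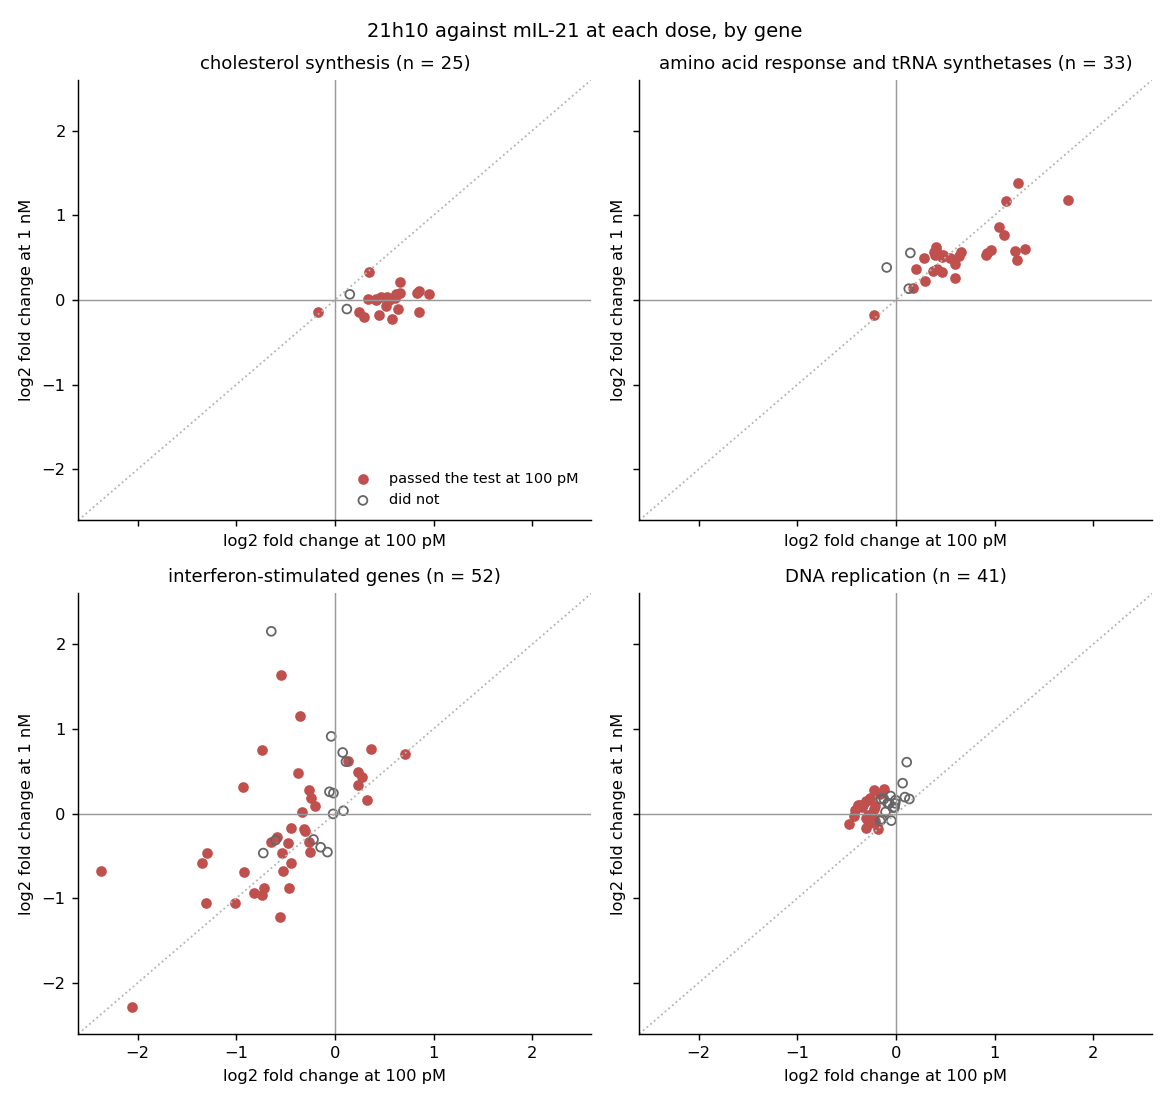
Difference between 21h10 and mIL-21 as a log2 fold change at 100 pM (x axis) and at 1 nM (y axis) for the tested members of 4 gene lists, filled where the gene passed at 100 pM, with the dotted line marking equal change. Cholesterol genes spread along the x axis near 0 on the y axis (medians 0.53 and 0.01), whereas the amino acid genes lie near the dotted line (medians 0.48 and 0.53).

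Cytotoxic genes were more often higher than lower. Of 20 tested, 10 were higher and 2 lower (median log2 fold change 0.24). Gzma, a granule protease, had 40.0 and 41.1 CPM without cytokine, 266 and 260 CPM with mIL-21 and 1056 and 974 CPM with 21h10, 3.86-fold between the cytokines (log2 fold change 1.95 ± 0.05, SE, n = 2, edgeR adjusted p = 3.19e-14). Rab27a, needed for granule release, rose by 0.71, and the death ligand Fasl was lower at 21.1 and 19.7 CPM against 26.2 and 26.1 CPM. NK-type receptors were mixed, with 3 of 17 higher and 5 lower. Without 21h10 replicate 2, mIL-21 replicate 1 or mIL-21 replicate 2, 3 were lower. Klrb1f, an NK-type lectin receptor, rose from 3.16 and 3.82 CPM to 10.13 and 10.52 CPM, while Cd160 (-0.60) and Klrd1 (-0.50), both receptors for MHC class I-type ligands, were lower. Secreted factors were also mixed, with 6 of 21 higher and 7 lower. The chemokines Ccl4 and Ccl9 rose by 1.18 and 1.14 and the lymphotoxin and tumor necrosis factor genes Lta and Tnf fell by 1.36 and 0.65, as did Xcl1 above.

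Homing genes separated the cytokines in both directions, with 9 of 27 higher and 9 lower (5 higher without mIL-21 replicate 1 or mIL-21 replicate 2, and 4 higher on mapped reads). Cxcr3, which guides effector T cells to interferon-induced chemokines, had 58.7 and 58.8 CPM against 23.3 and 21.7 CPM (log2 fold change -1.39). Itgb1, the integrin beta 1 chain, went from 768 and 768 CPM to 375 and 405 CPM (-0.98). For transcription factors known for effector or exhausted cells, 9 of 21 were higher and 5 lower, with Hopx (0.89) and Nfil3 (0.74) up and Eomes (-0.58) and Gata3 (-0.45) down. Hopxos on the other strand overlaps 27.2% of the exonic bases of Hopx. For factors known for naive and memory cells, 10 of 21 were higher and 7 lower (6 higher on mapped reads or without 21h10 replicate 2). Bcl6, a repressor of effector genes, and Klf7 rose by 0.84 and 0.95, and Id3, of memory precursors, fell by 1.74. Klf2, which controls T cell egress, showed a response to mIL-21 at 100 pM above that of the other groups, with 3.64 and 3.72 CPM without cytokine, 33.5 and 32.1 CPM in the mIL-21 libraries, 11.1 and 10.5 CPM in those with 21h10, and between 7.89 and 10.5 CPM at 1 nM. It was 3.04-fold lower with 21h10 than with mIL-21 at 100 pM.

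Inhibitory and costimulatory receptors were more often higher. Of 16 inhibitory receptors 8 were higher and 3 lower (6 and 5 on mapped reads). Entpd1, the CD39 ectonucleotidase, had 19.5 and 19.8 CPM with mIL-21 and 46.3 and 43.8 CPM with 21h10 (log2 fold change 1.20). Lag3 rose by 1.17 and Havcr2, the TIM-3 receptor, by 0.79, while Cd96 was lower (-0.50). Of 17 costimulatory receptors 8 were higher and 2 lower. Members of the tumor necrosis factor receptor family, Tnfrsf8 (CD30, 1.17), Tnfrsf9 (4-1BB, 1.14) and Tnfrsf4 (OX40, 1.13), rose by like amounts, and Slamf6, which marks less differentiated cells, fell by 1.10. Tnfrsf9 was at 396 and 404 CPM with mIL-21 and 909 and 856 CPM with 21h10. Of 23 T cell receptor and proximal signaling genes 2 were higher, the phosphatase gene Ptpn6 (0.28) among them, and 7 lower, Cd8b1 (-0.21) among them. Without 21h10 replicate 2, 4 were lower, and without any 1 of the other 3 libraries 3 were, with 1 higher each time. Of 15 BCL2 family genes outside the study's display 4 were higher and 2 lower, with the death gene Pmaip1 up by 0.62 and Bid down by 0.42. These shares, 26.7% and 13.3%, lay near the 19.6% and 19% of all genes tested. Without 21h10 replicate 2 or mIL-21 replicate 2, or on mapped reads, 2 were higher, and 1 was lower without 21h10 replicate 2. Of the 20 genes that the study displayed from libraries of this series, 9 were higher and 6 lower. Their choice may have drawn on these same libraries.

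The difference between the cytokines was compared with that at 1 nM, measured in other libraries of the same experiment. Over the 13974 genes the log2 fold changes at the 2 doses were correlated at 0.53 (Pearson) and 0.50 (Spearman), across genes that are not independent replicates. Of 2937 genes that passed at both doses, 2701 had the same direction and 236 the opposite one. The difference between doses itself passed for 2570 genes (18.4%). The lower dose of 21h10 and the higher dose of mIL-21 do not match, and their levels are given side by side without a comparison. Serpinb5 stood at 68.7 and 67.4 CPM in the first and 69.8 and 69.8 CPM in the second, Gzma at 1056 and 974 CPM and 1017 and 1039 CPM, Klf2 at 11.1 and 10.5 CPM and 10.5 and 10.2 CPM, and Asns at 135.3 and 135.8 CPM and 131 and 130 CPM. These genes were picked, and other named genes lay farther apart. In the same order, Il10 was at 7.82 and 6.25 CPM and 11.97 and 12.34 CPM. Slc7a5 was at 202.5 and 199.2 CPM and 250.3 and 277.9 CPM, and Moxd1 at 6.23 and 6.38 CPM and 3.12 and 3.19 CPM. List medians, as log2 against the mean without cytokine, lay close for some lists. In the same order, the fatty acid list was at 0.83 and 0.83 and at 0.81 and 0.80. The amino acid list was at -0.04 and -0.03 and at -0.05 and -0.06. Other lists lay farther apart. The STAT3-linked targets were at 0.79 and 0.80 and at 1.02 and 0.99. The interferon-stimulated genes were at -0.72 and -0.70 and at -0.51 and -0.64.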

How the data were processed

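RNA from splenic CD8+ T cells was sequenced, and the authors deposited 1 table a library with the read count of each RefSeq transcript and its RPKM. According to the submitters' processing notes, reads were mapped to mm10 (GRCm38), with TopHat2 2.0.11, Bowtie2 2.2.6, SAMtools 0.1.8, bedtools 2.25.0 and edgeR among the tools named. The deposited counts were whole numbers without normalization, and the deposited RPKM values were relative to transcript length and mapped reads. The counting tool's use of strand is not given in the sources used here. Each of 23992 symbols (of 31682 transcripts) was represented by its longest transcript. Genes were kept by filterByExpr (least count 10, least total 15), scaled by TMM and tested with edgeR 4.0.16 in R 4.3.3 (glmQLFit and glmQLFTest) over 10 libraries with group as the only factor. The standard error was taken from the fold change and the test's F. The common dispersion was 0.00187. Duplicates differed beyond sampling noise, by a chi-square of 2.59 to 12.7 per gene. Other tools were limma 3.58.1, DESeq2 1.42.0, Python 3.11.15 and BLAST 2.17.0+. The fit was also run on simulated counts with the common dispersion for every gene and few changed genes. That setting is unlike the data, so nothing is concluded from it about the calls above. Intervals and floors cover counting error only.

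The members, lists and comparisons were chosen with earlier results of these data known. Named over all genes are the 10 largest rises and 10 largest falls among genes past the threshold, without overlap between groups, with mean RPKM at or above 1 where higher, and outside the 20 displayed genes, and likewise up to 3 each way in a list, of which some are named here, besides Il21r and Il2rg and members that fill out a list. Some genes covered by this rule or by the lists are not reported here.

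Overlaps with GENCODE M21 exons and near-identical transcripts (at least 95% identity over 100 bases) leave some named genes uncertain. Overlaps on the same strand are Il2rg with Gm20489 (30.5% of exonic bases), Fdps with Gm43738 (26.7%) and Capn3 with Ganc (7.68%). On the other strand are Klf7 with Gm26649 (39.3%), Xcl1 with Gm20743 (18.7%), Bid with Bcl2l13 (17.7%), Rps25 with Trappc4 (17.2%), Pim1 with Gm26885 (14.5%), Scap with 5830462I19Rik (13.2%) and Hmgcs1 with Gm48342 (12.1%). Copies cover 63.8% of the Isg15 transcript (AC151275.1), 36.2% of Ifitm1 (Gm7676), 29.5% of Rps25 (Gm2225) and 23.7% of Stat5a (Stat5b).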

Additional observations from a re-analysis of the deposited data

Results flagged for a closer look

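Of 97 named genes checked, 56 passed the edgeR test of the difference between doses (adjusted p under 0.05, background 18.4%). The test takes the difference between 21h10 and mIL-21 (log2) at 100 pM, less the same difference at 1 nM. Most of these genes were named for a large difference at 100 pM, which enters the test. Their number and their split by direction are therefore no result beside the background. The values below are the differences between doses. Genes that passed in the same direction at both doses, with a larger change at 100 pM, were Asns (0.32), Atf5 (0.76), Capn3 (-1.23), Cdkn1a (0.51), Ddit3 (0.71), Fads2 (0.99), Gcnt1 (1.29), Ggt1 (1.52), Gzma (1.31), Hopx (0.25), Ifitm1 (1.82), Iigp1 (-1.69), Itgb1 (-0.67), Kif1a (2.98), Klf2 (-1.29), Lag3 (0.62), Moxd1 (4.19), Nlrc5 (-0.41), Pim1 (0.56), Polr1b (-0.39), Rab27a (0.32), Serpinb5 (2.93), Stat3 (0.19), Tbc1d4 (-1.23), Tgtp2 (-0.76), Tnfrsf4 (0.72) and Tnfrsf9 (0.57). Those with a smaller change at 100 pM, in the same direction, were Ccl4 (-1.17), Cd160 (2.09), Cd96 (0.42), Enpp2 (-0.91), Entpd1 (-0.39), Gata3 (0.33), Il10ra (0.26), Itgae (0.40), Rrp1b (-0.42), Slamf6 (0.43), Stat4 (0.34) and Stat5a (-0.74). At 1 nM no difference between the cytokines passed for Bcl6 (0.74), Bid (-0.31), Derl3 (-1.92), Fdps (0.75), Fen1 (-0.39), Havcr2 (0.74), Klrb1f (1.52), Lta (-1.32), Ndrg1 (0.56), Nolc1 (-0.59), Pole (-0.35), Ptpn6 (0.36), Sc4mol (0.88) and Scd1 (1.28). The direction was the opposite at 1 nM, and passed there, for Hk2 (-0.57), Hmgcs1 (0.99) and Myc (-0.74). The cholesterol and fatty acid genes named here are in the groups whose change was larger at 100 pM or passed at 100 pM alone or reversed at 1 nM, except Elovl6 and Scap, for which no difference between doses passed.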

How the results depend on the processing

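Of the 145 genes that the naming rule covers, 22 lost the call under at least 1 alternative and 0 reversed, and the others kept direction and call under every alternative that gave them a value. The total of 5398 genes became 4841 with DESeq2, 5238 without a filter on low counts, 5414 with the most-read transcript and 6829 from the 4 libraries alone. It was 557, with 359 higher and 198 lower, for a log2 fold change of at least 1. Mapped-read scaling without TMM gave 1616 higher and 4071 lower, and limma on log2(RPKM + 1) gave 1319 higher. Leaving out 1 library gave totals of 3505 to 3934, with 1851 to 2051 higher and 1654 to 1883 lower. The number of lists with a median above that of all genes was 16 under every alternative that kept all 4 libraries, and 17 to 18 without 1 of them. Some list medians, less that of all genes, changed sign by more than the spread between duplicates. These were NK-type receptors (-0.215 to 0.048, the latter without mIL-21 replicate 1), T cell receptor genes (-0.020 to 0.00065, the latter without 21h10 replicate 1) and mitosis (-0.013 to 0.021, the latter without 21h10 replicate 2). Changes of sign within that spread are not listed here. The cause was not tested. Same-numbered duplicates did not deviate together (correlation of deviations -0.062 to 0.029 over 10 pairs of groups). This cannot decide whether the numbers pair them, since a small shared effect or a common source of cells would not show. A replicate block gave 5164 calls, 2644 higher and 2520 lower, and took 2 of the 145 calls, with Isg15 at an adjusted p of 0.0592. With 2 libraries a group, the precision rests on a spread shared over 10 libraries, and when a group is left with 1 library that library is assumed to vary like the others.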
